A study of Mus musculus with 16 samples.

Results

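Gene expression in mouse lung exposed to bleomycin was compared with lung exposed to phosphate-buffered saline (PBS), in both cases after a blocker directed at the Cav1 transcript. The comparison holds 8 of the 16 samples of the study, 6 with bleomycin and 2 with PBS, chosen by their titles alone, and covers every annotated gene. All mice were C57BL/6 of 9 to 12 weeks, and total RNA of whole lung was hybridised to Agilent arrays in a single colour (Cy3), 1 array per sample. All 8 had received the CAV1 target site blocker (CAV1 TSB) into the trachea at 5 mg/kg, 4 days and 2 days before bleomycin (1 unit/kg, also into the trachea) or PBS, and again 4 days afterwards. The other 8 samples had a control blocker, of a dose not in the labels, in its place, 6 with bleomycin and 2 with PBS, and serve here as the parallel comparison. No untreated lung and no lung without an oligonucleotide is among the groups. Neither the time of lung collection nor whether every sample came from its own animal is in the labels, and the p-values rest on the variation among samples, which may be technical.

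Bleomycin cuts DNA. In the lung it is used to model injury that goes on to fibrosis, with loss of alveolar epithelium, arrival of monocytes that turn into macrophages, cell division during repair and deposition of matrix by fibroblasts. Target site blockers are short synthetic oligonucleotides that lie over the site of a microRNA on a messenger RNA, so that the microRNA can no longer pair there. The labels do not name the microRNA. Published work on lung fibrosis names miR-199a-5p as the microRNA that pairs with Cav1, the gene of the caveolar coat protein caveolin-1, and its sequence is shown because the blocker given to every mouse of this comparison was directed at Cav1. The mature form in RefSeq (GRCm38.p6) is encoded at chr1:162217844-162217866 on the plus strand and chr9:21496537-21496559 on the minus strand. Capitals mark the seed, bases 2 to 8.
mmu-miR-199a-5p: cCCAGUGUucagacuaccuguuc

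Values are log2 intensities as deposited, with nearly 1 distribution across arrays (median 6.51 to 6.52, maximum 18.28), and 20304 genes were tested. RNA integrity numbers were 9 in all 8 samples. Markers of lung were bright throughout, with a mean log2 signal of 14.60 to 15.06 for the alveolar type 2 list, 13.55 to 13.87 for the alveolar type 1 list and 11.44 to 11.91 for the endothelium list. No pair of the 120 pairs of arrays held identical values. The median SD between arrays over all genes was 0.157 for bleomycin and 0.072 for PBS.

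Transcripts of skeletal muscle and of stratified squamous epithelium, tissues that are not part of the gas exchange lung, differed between arrays and had to be set apart first. Both PBS arrays were low, at 7.07 and 7.29 for the mean of 15 skeletal muscle genes and 6.69 and 6.72 for the mean of 15 squamous genes. Bleomycin array 3 was as low, at 7.34 and 6.71. The other 5 bleomycin arrays lay between 9.91 and 11.16 for muscle and between 9.97 and 10.87 for squamous genes. Over the group, the median difference was 2.66 for the muscle list and 3.43 for the squamous list, with no gene of either list passing the test, and in array 3 alone it was 0.08 and -0.02. The cardiac muscle and cartilage lists showed no such gap. Cardiac muscle genes were at 11.07 and 11.46 in PBS and 10.99 to 11.79 after bleomycin. Cartilage genes were near the median signal of all spots in all 8 arrays, at 6.43 to 6.68. Adipocyte genes varied between arrays, at 10.35 and 11.18 in PBS and 9.45 to 11.7 after bleomycin.

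**Figure D1:**
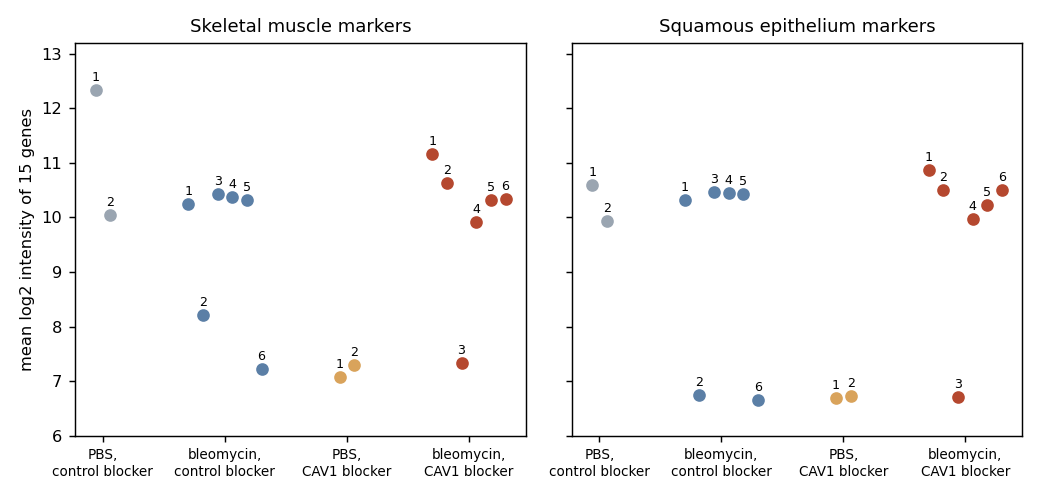
Mean log2 intensity of 15 skeletal muscle genes (left) and 15 stratified squamous epithelium genes (right) in all 16 arrays, grouped by treatment, with the replicate number above each point. Both PBS arrays with the CAV1 blocker and bleomycin array 3 with the CAV1 blocker lie at 7.07 to 7.34 for muscle and 6.69 to 6.72 for squamous genes, and the other bleomycin arrays with that blocker lie at 9.91 or above.

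A gene was taken to track these markers where its signal correlated with the mean of either list by at least 0.7 in size across the 12 bleomycin arrays, centred within each group, which uses no PBS array. In all 1133 genes tracked (5.58% of those tested). Of the 105 genes called changed by bleomycin under the CAV1 blocker (0.517% of those tested), 5 tracked and 100 did not. The 5 were Sprr1a and Tgm1, of the cornified envelope of squamous cells, Mybpc2, a myosin binding protein of fast muscle fibres, S100a14, an epithelial calcium-binding protein, and Mucl3, a mucin-like protein. Sprr1a, the largest rise of the whole comparison, was 7.66 and 7.66 in PBS and 11.63, 11.24, 9.30, 11.07, 11.14 and 11.82 in bleomycin arrays 1 to 6, so array 3 was the lowest of the 6 yet above both PBS arrays. Its rise of 3.38 (log2, SE 0.676, adjusted p = 0.0432) went with a correlation of 0.974 with the markers. The correlations of Mybpc2, S100a14 and Tgm1 were 0.949, 0.987 and 0.948, and in array 3 the difference of these genes and Sprr1a was 0.45 to 0.58 times that of the group. Mucl3 ran the other way, with a correlation of -0.749 and a rise of 0.80. Just under the limit lay Cilp at 0.65, Mapk13 at 0.617 and Upk3a at 0.589, which are described with the genes that did not track.

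Among the 100 genes that did not track, 65 rose and 35 fell after bleomycin. In all 100 the difference of array 3 from the PBS mean had the direction of the group, and it was 0.98 times that of the group at the median (0.54 to 1.37). In 11 of the 100 it was under 0.7 times. Array 3 is 1 of the 6 arrays behind the calls, and its low marker signal entered the choice of genes that do not track, so a ratio near 1 follows in part from that choice and is a description only. With the muscle mean as a covariate, 6 genes that did not track were called, and with the squamous mean 5, among them Lilrb4a, Psrc1, Wfdc17, Clec4d and Upk3a in both fits. All 105 called genes were fully separated, with 6 bleomycin arrays on 1 side of both PBS arrays, as were 8.38% of all genes tested on the higher side and 12.3% on the lower side.

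**Figure D2:**
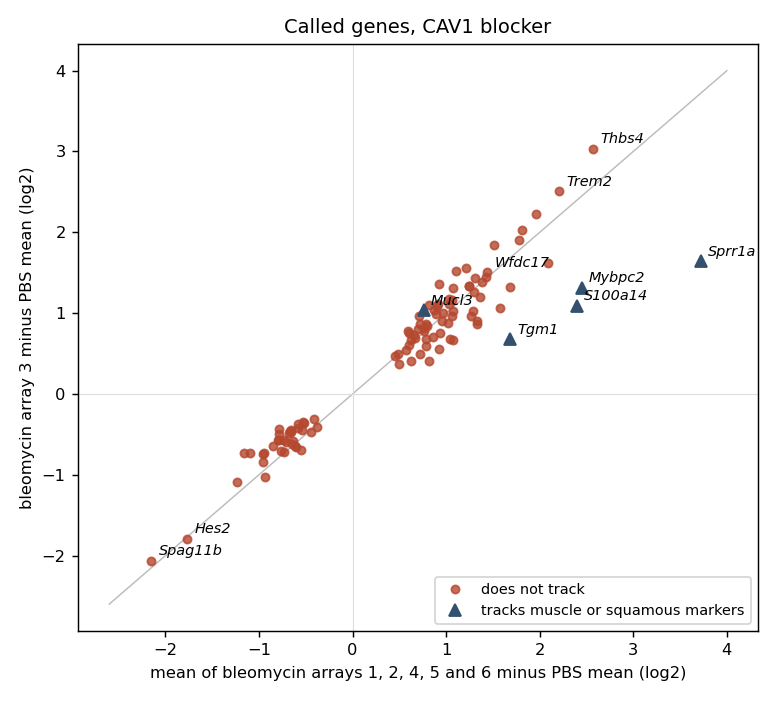
Difference of bleomycin array 3 from the PBS mean against the mean difference of the other 5 bleomycin arrays from the PBS mean (both log2) for the 105 called genes, with the line of equality. Circles, the genes that do not track muscle or squamous markers, lie along the line, and 4 of the 5 triangles, Sprr1a, Mybpc2, S100a14 and Tgm1, lie well under it.

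In total 70 genes were higher after bleomycin (0.345% of those tested) and 35 lower (0.172%), at an adjusted p under 0.05 in limma. At an unadjusted p under 0.05 these were 1451 (7.15%) and 1558 (7.67%), and the median difference of all genes was -0.006. A limma fit to the 8 compared arrays alone called no gene (smallest adjusted p = 0.0666, with 3225 genes at an unadjusted p under 0.05), and neither did a fit with the replicate number as a block (1729 genes at an unadjusted p under 0.05). Centring the arrays on their medians turned the split to 90 higher and 100 lower, and a renewed quantile normalization to 71 and 60. The number of calls also turned on single arrays. All 105 calls were kept without bleomycin array 1, without which 719 genes were called, and without either PBS array of the control blocker, without which 312 were called. Without PBS array 1 or 2 of the CAV1 blocker, 8 and 5 of the 105 were kept. Without bleomycin arrays 2, 3, 4, 5 and 6 of that blocker, 15, 51, 11, 10 and 15 were kept, and without 1 of the bleomycin arrays of the control blocker, 23 to 66. Wfdc17, Lilrb4a, Psrc1 and Spag11b were called in all 16 of these fits.

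Bleomycin array 1 stood nearest to PBS. Over the 65 rises its median difference from the PBS mean was 0.56, against 0.96 to 1.15 in arrays 2 to 6, and over the 35 falls it was -0.41, against -0.58 to -0.80. This array had the highest muscle and squamous signal of its group, at 11.16 and 10.87. Array 3, with the lowest, had medians of 0.97 and -0.58. Over the same genes the bleomycin arrays of the control blocker lay at 0.97 to 1.21 and -0.66 to -0.81. The genes were called through their difference from the PBS mean used here, so other arrays may lie on that side of it by the choice alone. The PBS arrays of the control blocker lay on the same side of that mean, at 0.42 and 0.29 over the rises and -0.29 and -0.50 over the falls, not far from bleomycin array 1.

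Genes of macrophages had the smallest p-values among the rises. Wfdc17, a small secreted protein of activated macrophages, had the smallest p of all genes. It was 11.11 and 11.06 in PBS and 12.34, 12.23, 12.59, 12.76, 12.74 and 12.55 in bleomycin arrays 1 to 6, so that the groups lay more than a full log2 unit apart. The group means were 11.09 ± 0.0379 (SD, n = 2) and 12.54 ± 0.21 (SD, n = 6), a rise of 1.45 (log2, SE 0.149, adjusted p = 0.00143) or 2.73-fold. Lilrb4a, an inhibitory immunoglobulin-like receptor of myeloid cells, was 12.10 and 11.95 in PBS and 12.68 to 13.22 (median 13.12) after bleomycin, a rise of 1.04 (log2, SE 0.115, adjusted p = 0.00169). Its near-identical neighbour Lilr4b rose by 1.39, and the signals of the pair cannot be fully told apart. Trem2, the lipid-sensing receptor of scavenging macrophages, was 10.29 and 10.25 in PBS and 10.67, 12.51, 12.78, 13.34, 12.98 and 12.87 in bleomycin arrays 1 to 6. Array 1 was close to PBS and the other 5 lay more than 2 units above it, and the group rise was 2.25 (log2, SE 0.458, adjusted p = 0.0432). Tyrobp, the membrane adaptor through which Trem2 signals, rose by 0.49 (log2, SE 0.0997, adjusted p = 0.0432) from 14.37 and 14.35 to 14.53 to 14.99 (median 14.88). The Trem2 call held in 3 of the 16 leave-one-out fits (difference 2.09 to 2.62, adjusted p up to 0.346), whereas Wfdc17 held in all (adjusted p up to 0.00864).

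Other surface receptors of myeloid cells rose as well. Clec4d, a C-type lectin that recognises microbial glycolipids, went from 9.43 and 9.31 in PBS to 10.28 to 10.97 (median 10.69), a rise of 1.25 (log2, SE 0.171, adjusted p = 0.00948), and here array 1 stood at the group median. Ms4a6d rose by 1.06, the Fc receptor gene Fcgr3 by 1.00, the scavenger receptor gene Msr1 by 0.99 and Csf2rb, the shared signalling chain of the GM-CSF receptor family, by 0.77 (adjusted p = 0.0277, 0.0432, 0.0446 and 0.0277). Members of the Ms4a family and Csf2rb have close paralogs whose signal a probe may share. Msr1 held its call in 3 of the 16 leave-one-out fits, Csf2rb in 10 and Clec4d in 15, the latter losing it without PBS array 2 (adjusted p = 0.0894). Among secreted products, Retnla, made by alternatively activated macrophages and airway epithelium, rose by 1.43 (log2, SE 0.266, adjusted p = 0.0379) from 13.40 and 13.72 to 14.67 to 15.54 (median 14.96). Ccl8, a chemokine that draws monocytes, rose by 0.90 (log2, SE 0.181, adjusted p = 0.0432) from 10.76 and 10.75 to 11.10 to 12.04 (median 11.71). Both groups of arrays were fully apart for these genes. Retnla was the called member of 12 measured genes of the alternative activation list, with 7 positive, 5 negative and a median of 0.14. Ccl8 was the called member of 25 chemokines, with 16 positive, 9 negative and a median of 0.19.

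Of the 22 measured genes of the monocyte-derived macrophage list, Trem2 was the only member called, 14 were higher and none lower at an unadjusted p under 0.05, and the list median was 0.88. In array 3 that median was 0.63. Spp1, the secreted phosphoprotein of scar-associated macrophages, had the largest difference of the list at 2.81 (adjusted p = 0.0575). It was 10.27 and 9.76 in PBS, 10.28 in bleomycin array 1, level with PBS, and 12.90 to 13.67 in arrays 2 to 6. Mmp12, the macrophage elastase, differed by 1.87, and the complement genes C1qa, C1qb and C1qc, which macrophages make, by 1.59, 1.62 and 1.56 (adjusted p = 0.0557, 0.06, 0.075 and 0.0982). Without bleomycin array 1, the array nearest to PBS, the adjusted p of Spp1 was 2.14e-05 and that of C1qa 0.00303. Calls over all genes rose from 105 to 719 in that fit, so these values are a description only. The list of resident alveolar macrophages went the other way at the median (-0.30), with none of its 14 genes called. At an unadjusted p under 0.05, 2 of the 14 stood higher and 3 lower. For both macrophage lists, the shares over all tested genes were 7.15% higher and 7.67% lower at that p, and 0.345% called higher. Fabp1, a fatty acid binding protein, was at -2.42 and Itgax, the integrin CD11c, at 0.88 (adjusted p = 0.0511 and 0.0647), and in array 3 the list median was -0.07. In a whole-lung sample, fewer cells of a type and less RNA per cell cannot be told apart.

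**Figure D3:**
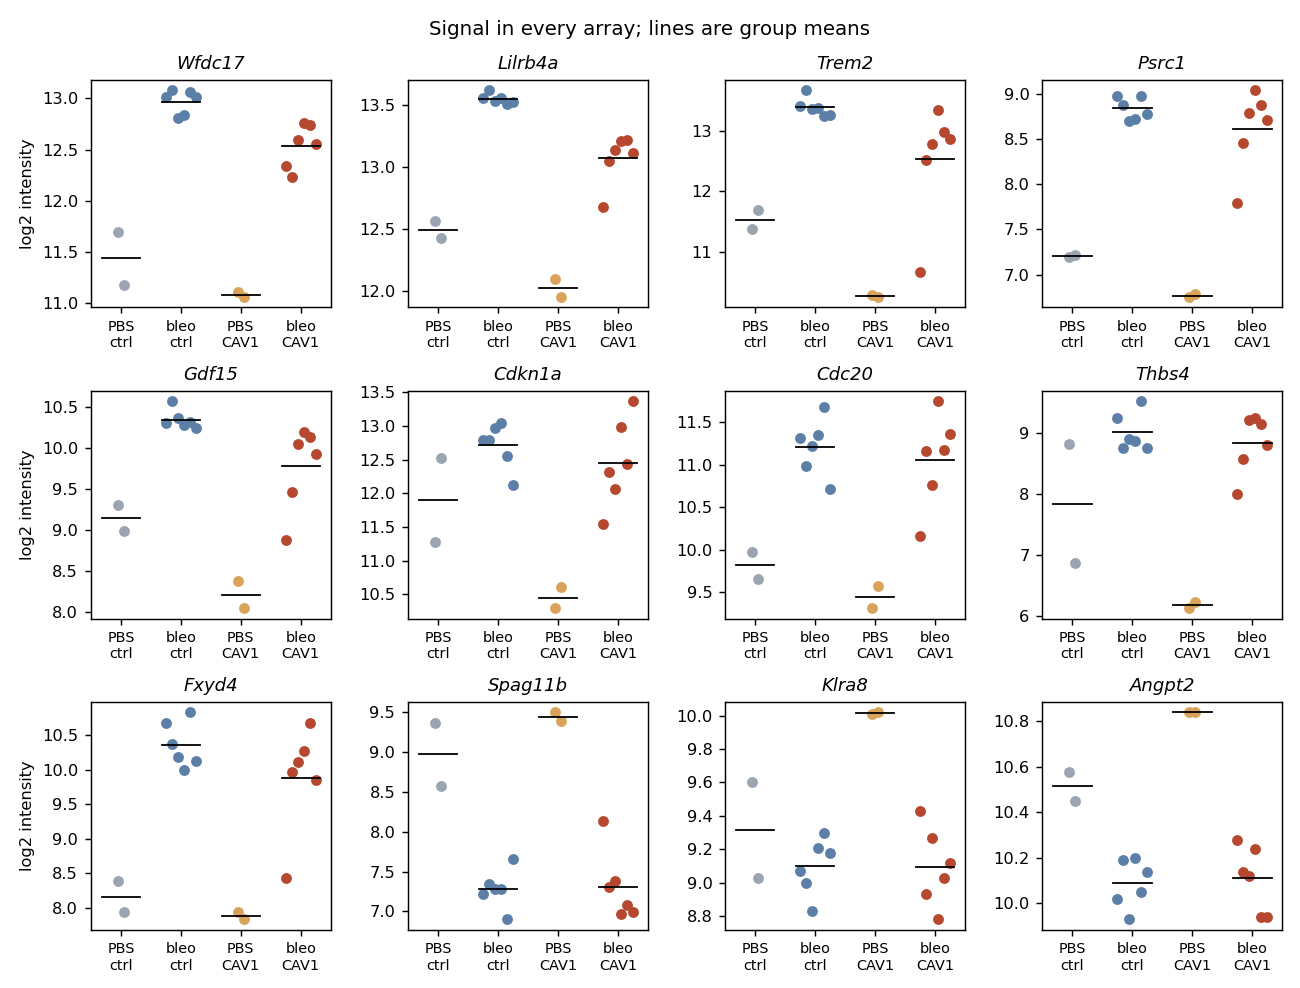
Log2 intensity of 12 genes in each of the 16 arrays, with group means as lines, for PBS and bleomycin (bleo) under the control (ctrl) and CAV1 blocker. For Wfdc17 the CAV1 blocker arrays lie at 11.06 and 11.11 with PBS and 12.23 to 12.76 with bleomycin, and for Trem2, Spag11b and Fxyd4 bleomycin array 1 lies between PBS and the other 5.

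Several targets of p53, the transcription factor activated by DNA damage, rose. Of 28 measured genes of the list 7 rose and none fell, 16 had a higher and 1 a lower signal at an unadjusted p under 0.05, and the list median was 0.36 (0.38 in array 3). Cdkn1a, the p21 inhibitor of cyclin-dependent kinases, was 10.29 and 10.60 in PBS and 11.55, 12.32, 12.07, 12.99, 12.43 and 13.37 in bleomycin arrays 1 to 6. Each of the 6 was above both PBS arrays, by about 1 unit in array 1 and almost 3 in array 6, and the rise was 2.01 (log2, SE 0.396, adjusted p = 0.0432) or 4.03-fold. All 12 spots for Cdkn1a gave a positive difference, from 0.82 to 2.10. Psrc1, a spindle protein counted among p53 targets, rose by 1.85 (log2, SE 0.225, adjusted p = 0.00413) from 6.75 and 6.78 to 7.79 to 9.04 (median 8.75). It is the member of this list called in all 16 leave-one-out fits. Gdf15, a secreted stress hormone, rose by 1.57 (log2, SE 0.261, adjusted p = 0.0277) from 8.37 and 8.04 to 8.88 to 10.19 (median 9.99). Ccng1, a cyclin long known as a p53 target, rose by 0.94 (log2, SE 0.146, adjusted p = 0.0219), and Ckap2, Plk3 and Zmat3 by 1.26, 0.74 and 0.63. Psrc1 and Ckap2 are also genes of cell division, so the calls of this list are not separate from the mitosis result below. The call of Cdkn1a held in 4 of the 16 leave-one-out fits (adjusted p up to 0.398), of Gdf15 in 11 and of Ccng1 in 13. The death receptor and apoptosis members Fas, Bbc3 and Pmaip1 stood at -0.32, -0.02 and -0.19 and did not pass the test.

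Outside the list, Ddias, which protects damaged cells from apoptosis, rose by 0.75, and Mgmt, which removes alkyl groups from guanine, by 0.62 (adjusted p = 0.0432 and 0.0432). Tnfrsf23, a decoy receptor for the death ligand TRAIL, rose by 0.74, with spots from 0.15 to 0.74. These 3 were named after their values were seen.

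Genes of mitosis were higher at the same time as the p21 gene. All 29 measured genes of the mitosis list had a positive difference, 25 were higher at an unadjusted p under 0.05 and 6 passed the adjusted test. Over all tested genes 48.8% were positive, 7.15% were higher at that p and 0.345% were called higher. The list median was 0.97, against -0.006 over all genes, and 0.99 in array 3. The list mean was 7.86 and 8.01 in PBS and 8.31, 8.85, 8.78, 9.18, 8.94 and 8.88 in bleomycin arrays 1 to 6, so that every bleomycin array exceeded both PBS arrays. Cdc20, the activator that starts anaphase, rose by 1.62 (log2, SE 0.311, adjusted p = 0.0416) from 9.31 and 9.57 to 10.16 to 11.75 (median 11.17). Ube2c, which works with it to mark cyclins for destruction, rose by 1.49 (log2, SE 0.235, adjusted p = 0.0219) from 8.42 and 8.83 to 9.69 to 10.62 (median 10.10). Cyclin A2 (Ccna2) rose by 1.34, the proliferation marker Mki67 by 1.29, the kinase gene Plk1 by 1.25 and Nusap1, a spindle protein, by 0.98. Called genes of the same process that are not on the list were Kif22, a chromosome motor (1.33), and Spc24, of the kinetochore (0.81). The 6 calls of the list held in 3 to 13 of the 16 leave-one-out fits.

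The promoters of the mitosis list were also read for a sequence. The list is a choice of known mitosis genes, so its motif shares describe the list and not the response to bleomycin. Promoters of such genes are known for a CHR element, often written TTTGAA, found with CCAAT boxes upstream and bound by a repressor complex in resting cells. In RefSeq promoters of 300 bases (250 before and 50 after the gene start, GRCm38.p6), TTTGAA on either strand was present in 18 of 23 mitosis genes (78.3%) and in 15.1% of 15879 tested genes. CCAAT on either strand was present in 20 of the 23 (87.0%), against 38.7%, and both motifs in 17 (73.9%), against 6.21%. The DNA replication list held TTTGAA in 3 of 22 promoters (13.6%). The 54 called rises with a promoter held it in 12 (22.2%), and the 28 called falls in 5 (17.9%). A match is a description of letters and not evidence of a factor at work. The 5 windows shown were chosen because they carry the element, in called genes of cell division. The called genes Nusap1, Psrc1 and Ccne1 held no copy in their promoters. Each window covers 30 bases 5′ to 3′ on the strand of the gene, with capitals for TTTGAA or its reverse complement TTCAAA.
Cdc20, chr4:118437344-118437373, minus strand: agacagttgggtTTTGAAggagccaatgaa
Ube2c, chr2:164769888-164769917, plus strand: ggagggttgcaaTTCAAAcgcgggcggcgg
Kif22, chr7:127042421-127042450, minus strand: ggggccccggtaaTTCAAAagagagaagcg
Mki67, chr7:135716470-135716499, minus strand: agaaTTTGAAccgccgttttggTTTGAAtc
Ckap2, chr8:22185903-22185932, minus strand: gctttgttcgatTTTGAAatttctcgccgg
The element began 18, 29, 17, 98 and 101 bases before the gene start in Cdc20, Ube2c, Kif22, Mki67 and Ckap2. Mki67 has 2 copies in its window, and the other begins 116 bases before the start. Kif22 has 2 copies in its promoter, of which its window shows 1. The nearest CCAAT upstream of the element, for Mki67 the copy closer to the start, lay 35, 28, 37 and 43 bases further out in the first 4, and Ckap2 had none upstream in its window of 300 bases.

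DNA replication genes differed less. Of 27 measured, 14 were higher and none lower at an unadjusted p under 0.05, with a list median of 0.31 (0.41 in array 3). At that p 7.15% of all tested genes were higher and 7.67% lower. Ccne1, the cyclin that starts replication, was the called member and rose by 1.05 (log2, SE 0.218, adjusted p = 0.0473) from 7.80 and 8.05 to 8.32 to 9.44 (median 9.00). Its spots disagreed, with differences of 0.13 to 1.05. Chaf1a, a chromatin assembly factor, was 0.63 (adjusted p = 0.0648) and thymidine kinase 1 (Tk1) 0.81 (adjusted p = 0.0977).

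Among matrix genes, Thbs4 had the largest rise of the genes that did not track muscle or squamous markers. Thbs4 encodes thrombospondin 4, a matricellular protein of tendon, muscle and injured tissue. It was 6.13 and 6.24 in PBS, under the median signal of all spots, and 8.0, 8.58, 9.22, 9.25, 9.14 and 8.80 in bleomycin arrays 1 to 6, a rise of 2.65 (log2, SE 0.399, adjusted p = 0.0174). The values carry no mark for spots above background, and with PBS this low the size of the rise may be understated. Array 3, without muscle signal, gave 9.22, the second highest of the 6. The call was lost without PBS array 1 or PBS array 2 (adjusted p up to 0.114) and held in the other 14 fits. Cilp, a secreted protein of cartilage and fibrotic tissue, rose by 1.25 (log2, SE 0.242, adjusted p = 0.0417) from 7.20 and 7.55 to 8.18 to 9.07 (median 8.73), with the lowest values in arrays 1 and 3. Of the 33 measured genes of matrix glycoproteins and crosslinking enzymes, Thbs4 and Cilp rose, 14 stood higher and 2 lower with an unadjusted p under 0.05, and the median was 0.49 (0.42 in array 3). The shares over all tested genes were 0.345% called higher, and 7.15% higher and 7.67% lower at that unadjusted p. Tgfbi, a matrix protein induced by TGF-beta, rose by 0.67 (log2, SE 0.0941, adjusted p = 0.00948) from 13.13 and 13.10 to 13.59 to 13.96 (median 13.81), and held its call in 14 of 16 leave-one-out fits, losing it without either PBS array.

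None of the 19 measured collagen genes was called, although 8 were higher at an unadjusted p under 0.05 and the median was 0.46. Over all tested genes 7.15% were higher at that p. Col1a1, of the main fibrillar collagen, was 12.35 and 13.28 in PBS and 12.98, 13.90, 13.74, 13.76, 13.97 and 13.66 in bleomycin arrays 1 to 6. PBS array 2 was above bleomycin array 1, so the groups overlapped, and the difference was 0.85 (95% interval 0.34 to 1.36, adjusted p = 0.112). Col3a1, its partner in scar collagen, overlapped in the same way, at 13.16 and 14.21 in PBS and 13.76 to 14.76 (median 14.70) after bleomycin (difference 0.84, adjusted p = 0.131). Without bleomycin array 1, the array nearest to PBS, the adjusted p was 0.0113 for Col1a1 and 0.0122 for Col3a1. Leaving out that array raised the calls over all genes from 105 to 719, so these values are a description only. Grem1, an inhibitor of bone morphogenetic proteins, stood at 1.15 (adjusted p = 0.0647). The 14 contractile genes of smooth muscle and myofibroblasts had a median of 0.06 with none called. In the TGF-beta response list, Tgfbi was the called member of 20, and the inhibitory genes Smad6 and Smad7 stood at -0.97 and -0.52 (adjusted p = 0.0647 and 0.0792).

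**Figure D4:**
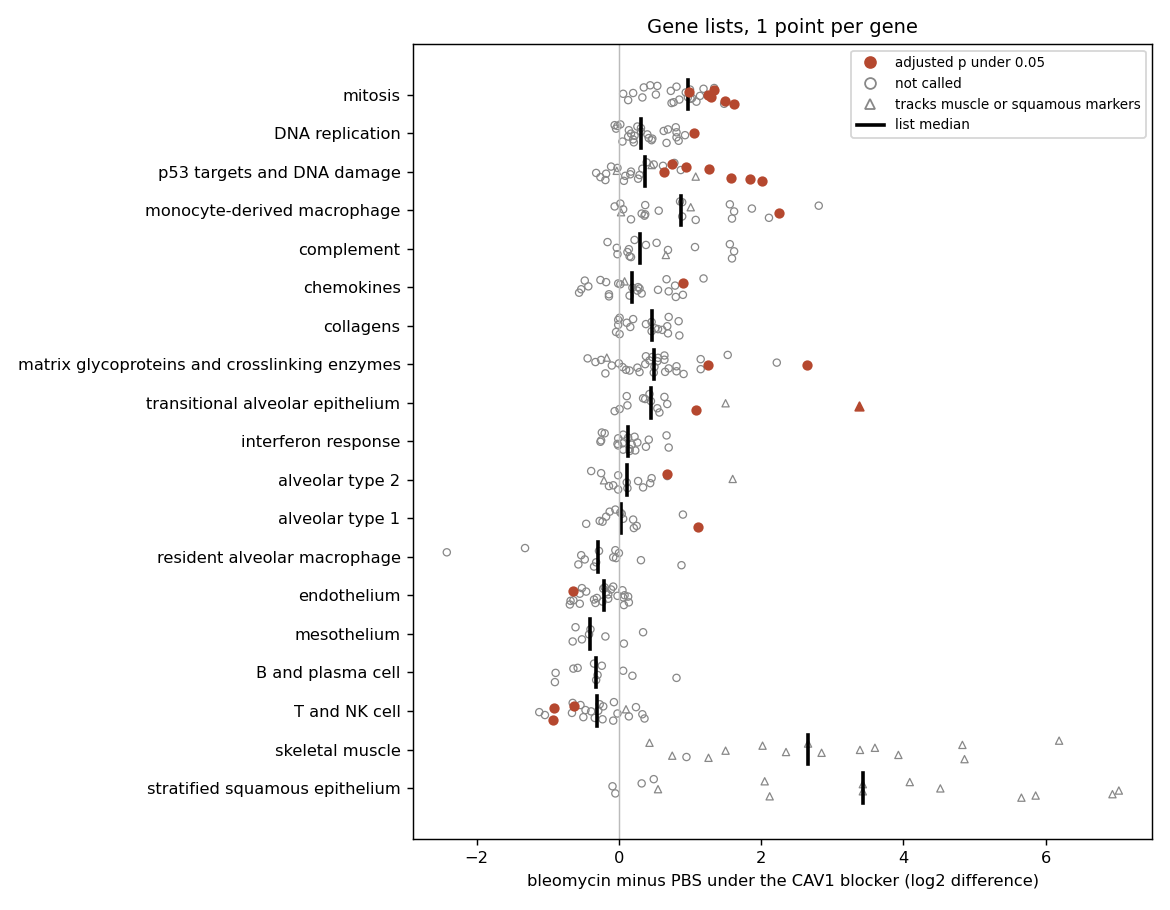
Difference between bleomycin and PBS under the CAV1 blocker (log2) for each measured gene of 19 lists, 1 point per gene, with the list median as a bar. Filled points passed the adjusted test and triangles track muscle or squamous markers. The mitosis genes all lie above 0 with a median of 0.97, and the T and NK cell list has a median of -0.32.

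Epithelial genes with a rise belonged to several states of the alveolus and airway. Fxyd4, a regulator of the sodium pump, was 7.93 and 7.83 in PBS and 8.43, 9.97, 10.11, 10.27, 10.67 and 9.85 in bleomycin arrays 1 to 6, with array 1 far under the other 5, and rose by 2.01 (log2, SE 0.402, adjusted p = 0.0432) or 4.01-fold. Its call held in 3 of 16 leave-one-out fits. Spock2, a proteoglycan of alveolar type 1 cells, rose by 1.11 (log2, SE 0.204, adjusted p = 0.0379) from 11.87 and 12.20 to 12.48 to 13.42 (median 13.33). Ctsh, the cathepsin that processes surfactant proteins in alveolar type 2 cells, rose by 0.67 (log2, SE 0.139, adjusted p = 0.0463) from 15.25 and 15.51 to 15.59 to 16.33 (median 16.07). Cldn4, a tight junction claudin of injured epithelium, rose by 1.08 (log2, SE 0.21, adjusted p = 0.0417) from 6.83 and 6.74 to 7.19 to 8.34 (median 7.96). Of the 15 genes of the transitional alveolar epithelium list, the called members were Cldn4 and Sprr1a, the latter a tracking gene, and the median without the tracking genes was 0.43. In the type 2 and type 1 lists Ctsh and Spock2 were the called members of 16 and 14, and the medians were 0.12 and 0.03. The basal epithelium list had a median of 0.71, but 7 of its 12 genes tracked, and it was 0.20 without them.

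Other called rises were spread over genes of several functions. Upk3a, a uroplakin of urothelium also found in lung epithelium, rose by 0.95 (log2, SE 0.132, adjusted p = 0.00948) from 6.98 and 6.86 to 7.64 to 8.05 (median 7.85), and lost its call only without PBS array 2 among the 16 leave-one-out fits (adjusted p = 0.1). Gja1, which encodes the gap junction protein connexin 43, rose by 0.83 (log2, SE 0.134, adjusted p = 0.0247), and its 10 spots gave 0.72 to 0.86. Mt2, a metal-binding metallothionein, rose by 1.21 (log2, SE 0.203, adjusted p = 0.0277) from 12.65 and 12.96 to 13.65 to 14.35 (median 14.06), and its sister gene Mt1 stood at 0.60 (adjusted p = 0.0506). Mt2 was the called member of 17 genes of the oxidative stress and metal response list, which had a median of 0.09. Mapk13, a stress-activated kinase, rose by 1.26 (log2, SE 0.198, adjusted p = 0.0219) from 10.22 and 10.36 to 11.19 to 11.84 (median 11.65), with its lowest values in arrays 1 and 3. Kng1, the precursor of bradykinin, rose by 1.80 (log2, SE 0.342, adjusted p = 0.0403), with spots from 0.04 to 1.80 and a near-identical paralog, Kng2. Aadac, a lipid esterase, rose by 1.27, Mfsd2a, a lysolipid transporter, by 0.72, Calca, the gene of calcitonin and its related peptide, by 0.86 and Wnt7b, a secreted Wnt ligand, by 0.87. Ghrl, the ghrelin gene, rose by 0.97.

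The 35 falls were smaller, with a median of -0.70 against 1.00 for the 70 rises. Spag11b, a defensin-like secreted peptide best known from the epididymis, had the largest fall. It was 9.50 and 9.39 in PBS and 8.13, 7.31, 7.38, 6.97, 7.08 and 6.99 in bleomycin arrays 1 to 6, with array 1 between PBS and the rest, and fell by 2.14 (log2, SE 0.269, adjusted p = 0.00454). Its call held in all 16 leave-one-out fits. Hes2, a transcriptional repressor of the Hes family, fell by 1.77 (log2, SE 0.303, adjusted p = 0.0277) from 9.35 and 9.27 to 7.11 to 8.68 (median 7.35). Orm3, an orosomucoid with close paralogs, fell by 1.20 (log2, SE 0.241, adjusted p = 0.0432). Its PBS arrays gave 6.97 and 8.30, a gap of over 1 unit between them, and without PBS array 2 the difference was -0.54. Asgr1, a glycoprotein receptor best known from liver, fell by 1.03 and Kitl, the stem cell factor that sustains mast cells, by 0.81 (adjusted p = 0.0379 and 0.0409). Acoxl, an acyl-CoA oxidase-like gene, fell by 0.94, Arhgef38, of a guanine nucleotide exchange factor family, by 0.95 and Mapt, the gene of the microtubule protein tau, by 0.76 (adjusted p = 0.0416, 0.0355 and 0.0463). Their calls held in 5, 6 and 3 of the 16 leave-one-out fits. Cd300e, a receptor of non-classical monocytes, fell by 0.76, Hsd11b1, which regenerates active glucocorticoid, by 0.52 and Thra, the thyroid hormone receptor alpha gene, by 0.63 (adjusted p = 0.0397, 0.0277 and 0.0298). The 10 spots of Hsd11b1 gave -0.52 to -0.42.

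Receptors of natural killer cells were among the falls under the CAV1 blocker. Klra8 and Klra7, inhibitory or activating receptors of the Ly49 family on natural killer cells, fell by 0.92 (log2, SE 0.169, adjusted p = 0.0379) and 0.91 (log2, SE 0.184, adjusted p = 0.0432). Klra8 was 10.01 and 10.02 in PBS and 8.78 to 9.43 (median 9.08) after bleomycin, and Klra7 was 8.89 and 9.34 and 7.90 to 8.56 (median 8.19), with no overlap. Klra9 of the same family fell by 0.74 and Klrb1a, a related lectin-like receptor, by 0.56. These families hold near-identical genes, so the split of signal among members is uncertain. Eomes, a transcription factor of natural killer and memory T cells, fell by 0.63 (log2, SE 0.108, adjusted p = 0.0277) from 7.55 and 7.48 to 6.75 to 7.07 (median 6.86). The spots of Eomes gave -0.63 to -0.04, those of Klra7 -0.91 to -0.21 and those of Klra8 -0.96 to -0.22. Of the 24 measured T and NK cell genes 3 fell and none rose, 11 were lower and none higher at an unadjusted p under 0.05, and the median was -0.32 (-0.34 in array 3). The shares over all tested genes were 0.172% called lower, and 7.67% lower and 7.15% higher at an unadjusted p under 0.05. The killing genes Gzma, Gzmb and Prf1 stood at -1.12, -0.54 and -0.50, and the T cell receptor genes Cd3d, Cd3e and Cd3g at -0.08, -0.02 and -0.22. None of these 6 was called. Klra8 held its call in 7 of 16 leave-one-out fits, Klra7 in 3 and Eomes in 10. Under the control blocker Klra8, Klra7, Klra9, Klrb1a and Eomes stood at -0.22, -0.06, -0.28, 0.02 and -0.03, and none was called. Their PBS means were 9.31, 8.45, 8.26, 8.13 and 7.02 there, against 10.02, 9.12, 8.62, 8.62 and 7.52 under the CAV1 blocker. Their bleomycin means were 9.1, 8.38, 7.98, 8.15 and 7.0, against 9.1, 8.21, 7.89, 8.07 and 6.89. The B and plasma cell list had a median of -0.32 with none of 11 called, 5 of them lower and 1 higher at an unadjusted p under 0.05.

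Some genes of blood vessels were among the falls too. Angpt2, the endothelial ligand that loosens vessel contacts through Tek, was 10.84 and 10.84 in PBS and 10.28, 10.14, 10.12, 10.24, 9.94 and 9.94 in bleomycin arrays 1 to 6, and fell by 0.73 (log2, SE 0.104, adjusted p = 0.00948). The PBS arrays gave the same value to 2 decimals, and the call held in all leave-one-out fits but those without either PBS array (adjusted p up to 0.0894). Kdr, the main receptor for vascular endothelial growth factor, fell by 0.65 (log2, SE 0.136, adjusted p = 0.0494) from 13.71 and 13.54 to 12.77 to 13.37 (median 12.88), with 11 spots between -0.72 and -0.11 and a call in 3 of 16 leave-one-out fits. Sema3g, a semaphorin of arterial endothelium, fell by 0.73 (log2, SE 0.144, adjusted p = 0.0432). Of the 26 endothelial genes measured, Kdr was the called member, 9 were lower and none higher at an unadjusted p under 0.05, and the median was -0.21 (-0.32 in array 3). Over all tested genes 0.172% were called lower, and 7.67% were lower at an unadjusted p under 0.05. Acvrl1, the endothelial receptor for bone morphogenetic protein 9, stood at -0.68 (adjusted p = 0.0511), and the list members Pecam1 and Vwf at 0.07 and 0.13.

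Cav1, the transcript at which the blocker was directed, did not pass the test. It was 11.14 and 11.12 in PBS and 10.95, 10.86, 10.82, 10.85, 10.80 and 11.39 in bleomycin arrays 1 to 6, so that array 6 alone lay above PBS, and the difference was -0.18 (95% interval -0.57 to 0.20, adjusted p = 0.681). Dnm3os, the transcript that hosts a miR-199a gene, was 6.60 and 6.59 in PBS and 6.23 to 6.55 (median 6.48) after bleomycin, around the median signal of all spots, with a difference of -0.17 (95% interval -0.47 to 0.13). Dnm3, which overlaps it, gave 8.50 in array 3 and 6.51 to 6.85 in the other 5 bleomycin arrays. None of the 10 measured caveolar genes was called, and their median was -0.20, with Cav2 at -0.42 and Ehd4 at -0.54 (adjusted p = 0.169 and 0.114).

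The parallel comparison under the control blocker asks whether the response to bleomycin was alike without the Cav1 oligonucleotide. It shares no array with the comparison described so far, though both draw on 1 estimate of the spread. Under the control blocker 489 genes were called (2.41%), 398 higher (1.96%) and 91 lower (0.448%). Of these, 47 were called under both blockers, all in 1 direction, 42 higher and 5 lower. They are 44.8% of the calls under the CAV1 blocker and 9.61% of those under the control blocker. Of the 398 rises under the control blocker, 383 had a positive difference under the CAV1 blocker and 257 an unadjusted p under 0.05 with it, and of the 91 falls 74 had a negative difference and 42 such a p. Conversely, 68 of the 70 rises and 33 of the 35 falls under the CAV1 blocker had the same sign under the control blocker. Over all tested genes 47.8% had the same sign under both blockers, and 48.8% were positive under the CAV1 blocker. The genes called under both enter each of these counts.

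The difference between the effects under the blockers was tested itself and passed for no gene. The smallest adjusted p in limma was 0.497, and 1873 genes had an unadjusted p under 0.05 (9.22%), among them 15 of the 70 rises and 16 of the 35 falls described here. The absence of calls for this difference did not hold when any single PBS array was left out. Over all tested genes 2.41% were called under the control blocker and 0.517% under the CAV1 blocker, so list counts differ in the same direction. Of the 22 genes of the monocyte-derived macrophage list, 8 were called under the control blocker against 1 under the CAV1 blocker, with the same median of 0.88. At an unadjusted p under 0.05 the effect under the CAV1 blocker was lower for 6 of them and higher for 1. Wfdc17 went from 11.70 and 11.18 in PBS to 12.81 to 13.08 (median 13.01) after bleomycin under the control blocker, a rise of 1.53, and its difference between the effects was -0.08 (95% interval -0.53 to 0.37, unadjusted p = 0.723, adjusted p = 0.865). For Trem2 the rise under the control blocker was 1.85 and the difference 0.40 (95% interval -0.98 to 1.78, unadjusted p = 0.548, adjusted p = 0.766). The mitosis list had a median of 0.94 under the control blocker, with 16 of 29 called.

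Values lay further apart for Cdkn1a, Mapk13, Ccl8, Cxcl10 and Klra8. Cdkn1a was 11.28 and 12.52 in the PBS arrays of the control blocker and 12.13 to 13.04 (median 12.80) after bleomycin, so that PBS array 2 lay within the bleomycin range, and the difference between the effects was 1.20 (95% interval 0.00 to 2.39, unadjusted p = 0.0494, adjusted p = 0.497). Mapk13 was 10.93 and 11.43 and 11.09 to 11.71 (median 11.48), with a difference of 0.98 (95% interval 0.38 to 1.57, unadjusted p = 0.00326, adjusted p = 0.497). Klra8 was 9.60 and 9.03 and 8.83 to 9.30 (median 9.12), overlapping, with a difference of -0.71 (95% interval -1.21 to -0.20, unadjusted p = 0.00994, adjusted p = 0.497). For these genes the bleomycin arrays covered overlapping ranges under the blockers, and the PBS arrays of the CAV1 blocker lay beyond those of the control blocker. Ccl8 rose by 1.63 under the control blocker, from 10.33 and 10.00 to 11.56 to 11.89 (median 11.81), a difference of -0.72 (95% interval -1.27 to -0.18, unadjusted p = 0.013, adjusted p = 0.497). Cxcl10, an interferon-induced chemokine, was 0.70 under the CAV1 blocker (adjusted p = 0.0792) and rose by 1.63 under the control blocker (adjusted p = 0.000976), a difference of -0.93 (95% interval -1.46 to -0.40, unadjusted p = 0.00185, adjusted p = 0.497). The interferon response list had 7 of 21 genes called under the control blocker and none under the CAV1 blocker, with medians of 0.47 and 0.13. The shares called over all tested genes were 2.41% and 0.517%. The smallest p for the difference belonged to Slfn9, of the schlafen family, at -0.39 and 0.23 (unadjusted p = 7.67e-05), and another spot for it had the opposite sign under the CAV1 blocker. The next smallest p of differences below 0 belonged to Plod2, a collagen lysyl hydroxylase, at -0.44 and 0.21 (difference -0.66), and Rnf13, a ubiquitin ligase, at -0.13 and 0.58 (difference -0.71). Above 0 they belonged to Myoc, the myocilin gene, at 0.20 and -0.46, Gsta4, a glutathione transferase, at 0.33 and -0.33, and Mybpc2, which tracked, at 2.26 and -0.04 (adjusted p = 0.497 for each of the 5). The PBS arrays of the control blocker had muscle means of 12.33 and 10.05 and squamous means of 10.60 and 9.94, against 7.07 and 7.29 and 6.69 and 6.72 with the CAV1 blocker, and the part of this gap in the differences between the blockers was not tested.

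**Figure D5:**
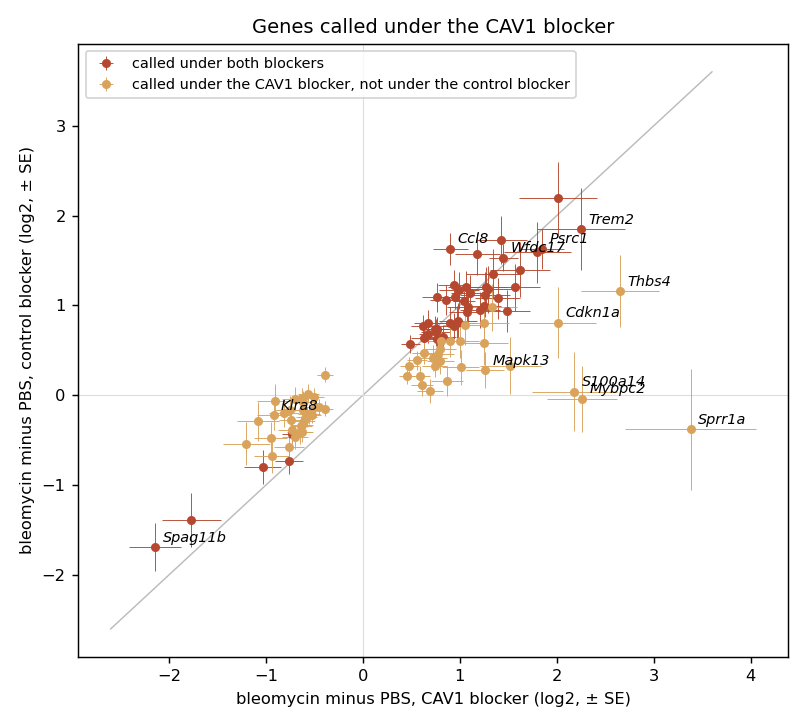
Bleomycin minus PBS under the control blocker against the same under the CAV1 blocker (log2, bars are ± SE) for the 105 genes called under the CAV1 blocker, with the line of equality. Of the points, 47 are called under both blockers, and Sprr1a, Mybpc2 and S100a14 lie near 0 under the control blocker at -0.38, -0.04 and 0.04.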

How the data were processed

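Whole-lung total RNA (0.2 µg per array, RNA integrity number 9 or 10 over the series) was measured on 16 single-colour Agilent arrays. The deposited values are log2 intensities that the authors made with limma, per the submitters' processing notes, which give no version. Background correction, scanner, slide and date are not given in the sources used here. Their near-equal distributions mean that a shift shared by most genes would not show. Values were used as deposited. Precision is limited by how many arrays there are.

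A single gene symbol was given for 31465 of 62976 spots, 29036 of them were matched to RefSeq (GRCm38.p6, for names and sequences only), and 2429 kept the symbol of the array. They gave 20863 genes, each represented by its brightest spot. Testing covered the 20304 genes whose signal exceeded an array's 25th percentile at least in 2 arrays. The model, in limma 3.58.1 (R 4.3.3), took all 16 arrays with 4 group means (lmFit and eBayes, 12 residual degrees of freedom). Contrasts were bleomycin minus PBS under each blocker and the difference between them. Tests were two-sided, with Benjamini-Hochberg adjustment over all genes, and a gene is said to rise or fall, or to be called, at an adjusted p under 0.05. Intervals are 95% confidence intervals. The fit was tested on simulated data.

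Members and the 43 gene lists were chosen with earlier results of these data known. Of the 677 listed genes 650 were tested. Named genes were the 12 largest rises and 12 largest falls that did not track muscle or squamous markers, the called tracking genes, every called gene and up to 4 others of a list described, Cav1, Dnm3 and Dnm3os, the 10 smallest p-values, the 3 smallest p-values in each direction for the difference between the blockers, and other called genes with a name. Called gene models without a name, 5 in all, were counted but not named. A fall that this rule names is not reported here. Further list members are given as values, chosen after they were seen.

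Alternatives covered the dim filter, the mean of spots, array weights, centring on medians, quantile normalization renewed, robust moderation with a trend, the 8 compared arrays alone, the replicate number as a block, a muscle or a squamous covariate, a log2 minimum of 1, other tracking limits and each array left out. The muscle covariate without bleomycin array 1 was added after seeing the data.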

Additional observations from a re-analysis of the deposited data

Results flagged for a closer look

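In the 6 bleomycin arrays of the CAV1 blocker, the highest and lowest values of 40 measures (38 genes and the muscle and squamous lists) were set against their neighbours with Dixon's ratio, and 13 stood apart. Chance alone flags about 1 in 20 such groups. That rate is no baseline for the 13, because the measures overlap. They include both lists and genes that track them. These 13 values come from arrays 1, 3 and 6.

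Array 3 was low in the muscle and squamous measures, with 7.34 for the skeletal muscle list, 6.71 for the squamous list, 9.30 for Sprr1a, 8.93 for Mybpc2 and 7.71 for Tgm1. It was high for Dnm3, at 8.50.

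Array 1 lay toward PBS in 6 called genes. It was lowest for the macrophage genes Trem2 at 10.67, Lilrb4a at 12.68 and Lilr4b at 9.36, and for Fxyd4 at 8.43. It was highest for the falling genes Spag11b at 8.13 and Hes2 at 8.68. Cav1 stood apart in array 6, at 11.39.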

How the results depend on the processing

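The 4 counts given here are, in order, genes called under the CAV1 blocker, those of them that did not track, genes called for the difference between the blockers, and genes called under both blockers, with 105, 100, 0 and 47 as reported. Leaving out each array gave 10 to 719, 10 to 697, 0 to 3011 and 4 to 290. The 3011 were called without PBS array 1 of the control blocker, against 41 without PBS array 2 of that group and 14 without either PBS array of the CAV1 blocker. A filter at the 50th percentile gave 164, 158, 0 and 78. Median centring gave 190, 181, 0 and 65 (90 higher and 100 lower). Array weights gave 2712, 2459, 0 and 0. A log2 minimum of 1 gave 39, 35, 0 and 19. The muscle covariate gave 10, 6, 0 and 7, the squamous covariate 8, 5, 0 and 5, and the muscle covariate without bleomycin array 1 gave 161, 150, 0 and 115. Lilrb4a, Psrc1, Wfdc17, Clec4d and Upk3a were called with either covariate among the genes that did not track. A fit to the 8 compared arrays alone gave 0 and 0 in limma, with 3225 genes at an unadjusted p under 0.05. The replicate block gave 0, 0, 0 and 0 in limma, with 1729 genes at an unadjusted p under 0.05 under the CAV1 blocker. Same-numbered bleomycin arrays correlated by -0.69 to 0.352 in their deviations, and 2 of 6 were best matched by their own number. These deviations include the muscle and squamous signal, so they cannot decide whether the numbers mark a pairing. The causes of these moves were not tested. No filter, the mean of spots, renewed quantile normalization, trend and robust moderation and the other tracking limits kept all 4 counts within 1.5 times, where they apply, and no named gene that was called changed its direction under any alternative run. The lowest adjusted p was 0.0666 in the fit to 8 arrays. With 2 PBS arrays the smallest called differences were -0.39 (Slfn9 and Zfp287), and absence of a call does not show equal levels.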
